A study of Mus musculus with 16 samples.

Results

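The troponin genes were described across the gastrocnemius (Gas, a muscle made mostly of fast-twitch fibers) and the soleus (Sol, rich in slow-twitch fibers) of mice with and without the histone demethylase LSD1 in their muscle fibers. The 8 members were the rows of the count tables named for a troponin C, I or T gene (*Tnnc1*, *Tnnc2*, *Tnni1*, *Tnni2*, *Tnni3*, *Tnnt1*, *Tnnt2* and *Tnnt3*), out of 24421 genes. Poly(A) RNA of whole muscle was sequenced in 16 libraries, with 3 WT and 5 LSD1-mKO libraries from each muscle. All mice were C57BL/6 males of 8 weeks. WT mice carried floxed *Lsd1* without a recombinase. LSD1-mKO mice carried floxed *Lsd1* together with CreERT2, a tamoxifen-inducible recombinase driven by the human *ACTA1* promoter, which acts in differentiating and differentiated muscle cells, so that other cells of the tissue kept the gene. Every mouse, WT included, received tamoxifen (75 mg/kg for 5 days) and the glucocorticoid dexamethasone (1 mg/kg for 7 days, begun during the tamoxifen course), so each value below belongs to a glucocorticoid-treated muscle and no untreated muscle was compared.

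Troponin is the calcium switch of the thin filament. Troponin C binds calcium, troponin I holds the filament off in its absence, and troponin T ties the complex to tropomyosin. Fast fibers use *Tnnc2*, *Tnni2* and *Tnnt3*, and slow fibers use *Tnnc1*, *Tnni1* and *Tnnt1*. *Tnnc1* also serves the heart, together with *Tnni3* and *Tnnt2*, and *Tnnt2* is made by embryonic and regenerating skeletal fibers as well. The balance between the fast and the slow set therefore reads the fiber type of a muscle at the level of the thin filament.

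The genes lie in linked and unlinked places of the mouse genome (GRCm38). *Tnni2* (chromosome 7, 142441808 to 142444410, plus strand) and *Tnnt3* (chromosome 7, 142498836 to 142516009, plus strand) were 54425 bp apart. *Tnni3* (chromosome 7, 4518305 to 4524229, minus strand) and *Tnnt1* (chromosome 7, 4504570 to 4516382, minus strand) were separated by 1922 bp. *Tnni1* (chromosome 1, 135779434 to 135810989, plus strand) and *Tnnt2* (chromosome 1, 135836354 to 135852260, plus strand) were 25364 bp apart. The troponin C genes had no troponin neighbour, *Tnnc1* being on chromosome 14 (31208312 to 31211729, plus strand) and *Tnnc2* on chromosome 2 (164777161 to 164779967, minus strand). Each of these close pairs thus joined a troponin I gene to a troponin T gene, and in the case of *Tnni1* and *Tnni3* the neighbour belonged to another fiber class. *Tnnc1*, *Tnnc2*, *Tnni3* and *Tnnt3* overlap *Nisch*, *Ube2c*, *Dnaaf3* and *Prr33*, but shared no exonic base with them in this annotation.

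Upstream sequences were available from RefSeq (GRCm38.p6) for 6 of the 8 genes. They are shown for the slow genes, whose levels separated the muscles most, for their fast counterpart *Tnnc2*, and for the cardiac gene *Tnnt2*. Each runs 5′ to 3′ on the strand of the gene up to the base before a RefSeq start site. For *Tnnc2*, where the 250 bases held part of an exon of another transcript, only the 126 bases between exons are printed. The *Tnni1* and *Tnnt1* windows held fewer exonic bases (19 and 29) and are printed whole. Both lie inside the spans of their genes given above. Capitals mark each match, on either strand, to the E-box CANNTG (the site type read by myogenic factors such as MyoD) or to the MCAT element CATTCC (read by TEAD factors).
Tnnc1 (chr14:31208062-31208311, plus strand): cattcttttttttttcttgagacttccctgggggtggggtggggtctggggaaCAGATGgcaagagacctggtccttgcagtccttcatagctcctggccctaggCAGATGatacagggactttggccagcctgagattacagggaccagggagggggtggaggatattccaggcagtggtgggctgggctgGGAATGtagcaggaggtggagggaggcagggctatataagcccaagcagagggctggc
Tnni1 (chr1:135799171-135799420, plus strand): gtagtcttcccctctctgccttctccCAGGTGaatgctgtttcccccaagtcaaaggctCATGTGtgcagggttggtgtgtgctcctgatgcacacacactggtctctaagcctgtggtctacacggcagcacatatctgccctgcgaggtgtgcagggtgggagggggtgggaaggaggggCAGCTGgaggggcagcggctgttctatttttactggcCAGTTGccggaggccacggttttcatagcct
Tnnt1 (chr7:4515976-4516225, minus strand): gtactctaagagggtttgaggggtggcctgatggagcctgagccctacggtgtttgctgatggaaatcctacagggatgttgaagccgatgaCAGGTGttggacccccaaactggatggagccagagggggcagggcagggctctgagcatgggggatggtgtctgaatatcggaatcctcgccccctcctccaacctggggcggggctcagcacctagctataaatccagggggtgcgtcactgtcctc
Tnnt2 (chr1:135836084-135836333, plus strand): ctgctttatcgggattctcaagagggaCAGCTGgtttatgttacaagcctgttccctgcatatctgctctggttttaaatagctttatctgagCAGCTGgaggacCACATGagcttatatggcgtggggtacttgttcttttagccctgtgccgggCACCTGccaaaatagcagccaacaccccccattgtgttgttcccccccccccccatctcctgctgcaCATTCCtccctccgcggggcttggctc
Tnnc2 (chr2:164779742-164779867, minus strand): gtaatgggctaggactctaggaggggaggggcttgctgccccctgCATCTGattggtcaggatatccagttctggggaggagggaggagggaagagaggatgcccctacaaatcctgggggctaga

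In these windows *Tnnc1* had 2 E-boxes, starting at -197 and -145, and an MCAT element at -58. *Tnni1* had 4 E-boxes, of which the CAGCTG form stood at -68, and *Tnnt2* had 4, with CAGCTG at -223 and -157 and an MCAT element at -27. *Tnnt1* had a single E-box at -158. The full *Tnnc2* window had E-boxes at -183 and -88, the latter being the match shown. E-boxes were common, being present in 66.2% of 32536 mouse promoter windows of the same 250 bases, whereas CAGCTG was present in 13.1% and the MCAT element in 12.6%. No window of the 6 genes matched the MEF2 site or the CArG box searched for, which 1.68% and 1.48% of all windows did. A match is a run of letters and was not tested as a binding site.

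The libraries held 10130415 to 24576377 assigned reads, and the troponin genes took 2.42% to 9.71% of them. *Kdm1a*, the gene of LSD1, checked the labels: it was at 41.8 ± 5.70 CPM (reads of the gene scaled to the effective size of the library, mean ± SD, n = 3) in WT Gas and 14.1 ± 2.19 CPM (n = 5) in LSD1-mKO Gas, and at 34.1 ± 0.753 CPM (n = 3) and 10.9 ± 1.72 CPM (n = 5) in Sol, without overlap in either muscle. Muscle identity matched the labels as well, since *Myh4*, the myosin of the fastest fibers, had a log2 fold change of 9.27 in WT Gas over WT Sol and *Myh7*, the slow myosin, had one of -5.45 (edgeR quasi-likelihood test, Benjamini-Hochberg adjusted p = 7.0e-06 and 3.5e-09). Libraries of WT Gas replicate 3, LSD1-mKO Gas replicate 5 and WT Sol replicate 2 stood apart by a high mean level of ribosomal protein genes (8.55, 7.93 and 7.29 log2 CPM), against 7.13 to 7.51 in the other Gas and 6.44 to 6.84 in the other Sol libraries. Values without them are given beside the genotype comparisons within each muscle.

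In Gas the fast genes made up nearly all of the troponin mRNA, and in Sol fast and slow genes stood within the same order of magnitude. Levels were compared between genes as CPM divided by exon length in kb (CPM per kb). In WT Gas the means were 35758 for *Tnnc2*, 31108 for *Tnni2* and 28122 for *Tnnt3*, against 218 for *Tnnc1*, 173 for *Tnnt1* and 87.3 for *Tnni1* CPM per kb (n = 3). Within each WT Gas library *Tnni1* was the lowest slow gene (*Tnnt1* stood at 2.51, 2.27 and 1.73 times and *Tnnc1* at 1.80, 1.80 and 2.905 times its level) and *Tnnc2* exceeded *Tnni2*, whereas the order of *Tnnc1* and *Tnnt1* and that of *Tnnc2* and *Tnnt3* changed between libraries. The ranges of the genes of a set overlapped across libraries, while the lowest fast library value (17590.3 for *Tnni2*) lay far above the highest slow one (479.9 for *Tnnc1*). In WT Sol the means were 9811 for *Tnnt3*, 8729 for *Tnnc2* and 7602 for *Tnni2*, against 3244 for *Tnnt1*, 2658 for *Tnnc1* and 1672 for *Tnni1* CPM per kb (n = 3). Here too the fast genes overlapped one another and none reached down to a slow gene, and within each WT Sol library *Tnnt1* was highest and *Tnni1* lowest of the slow genes. *Tnnt2* came next at 6.80 ± 1.65 in WT Sol and 2.78 ± 0.709 CPM per kb in WT Gas. *Tnni3*, the cardiac inhibitory subunit, had 1 to 5 reads in each Gas library and 6 to 14 reads in each Sol library, near the 3 reads taken as the limit of detection, and did not pass the filter on low counts. The other 7 genes entered the tests.

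**Figure D1:**
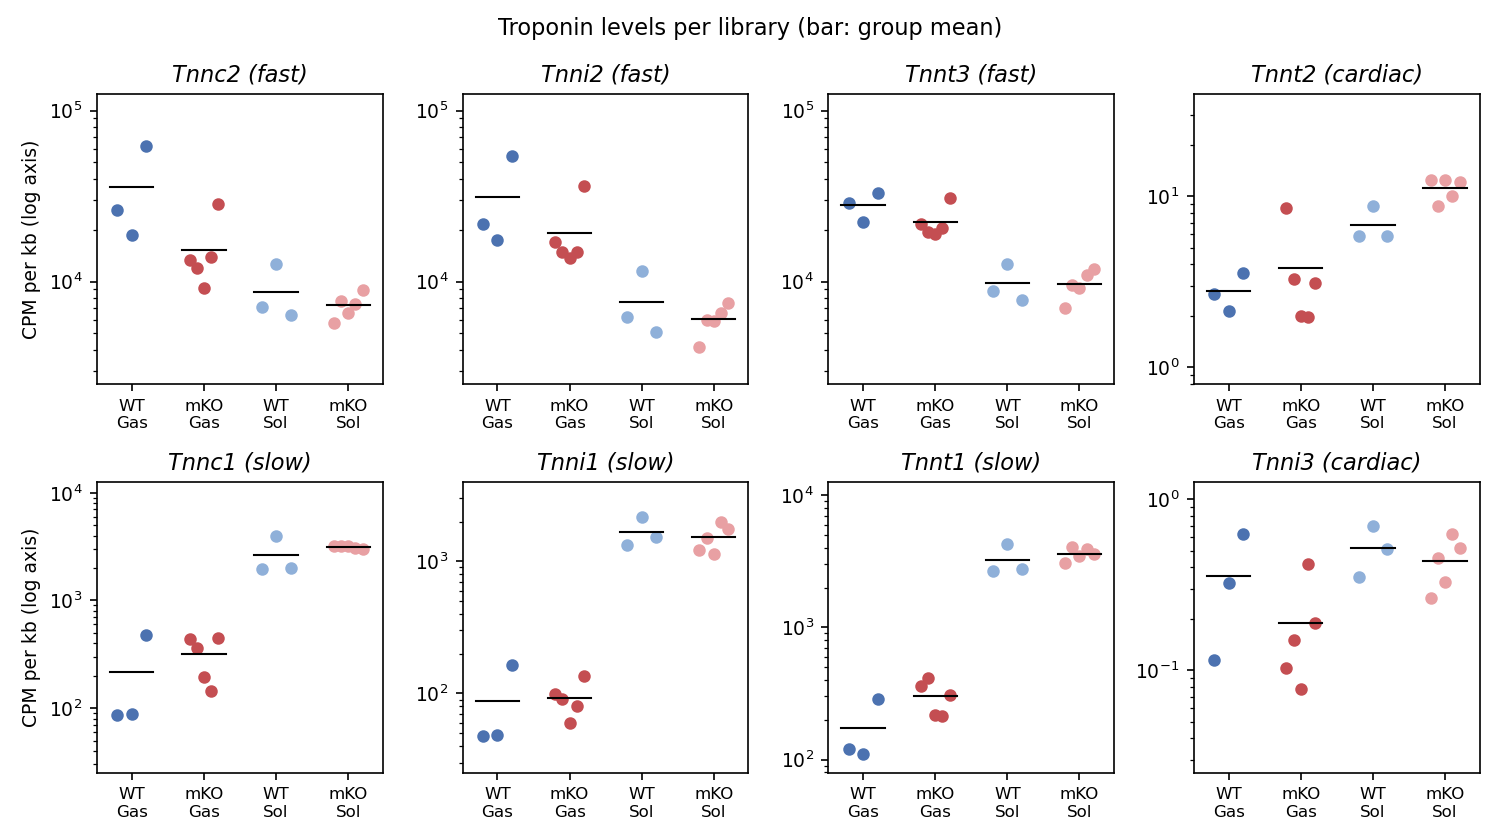
Level of each troponin gene in each of the 16 libraries, as CPM per kb of exon on log axes that differ between panels; each point is a library, the horizontal bars are group means, and mKO stands for LSD1-mKO. The slow genes in the lower row separated Gas from Sol in every library, the fast genes in the upper row separated them by less (for *Tnnc2*, within each genotype), and WT Gas replicate 3 and LSD1-mKO Gas replicate 5 were the highest of their groups for every fast gene.

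The first comparison asked how the troponin genes differed between the fast and the slow muscle of WT mice. All slow genes were lower in Gas, by far more than the fast genes were higher. *Tnni1*, which keeps slow filaments inhibited at rest, was at 47.9, 48.8 and 165 CPM per kb in the WT Gas libraries and at 1327, 2164 and 1526 in the WT Sol libraries. *Tnnt1*, the slow tropomyosin anchor, was at 120.4, 111 and 287 CPM per kb in Gas and at 2678, 4279 and 2773 in Sol. *Tnnc1*, the slow and cardiac calcium sensor, was at 86.4, 87.8 and 479.9 CPM per kb in Gas and at 1973, 3994 and 2008 in Sol. For each of these genes every Sol library exceeded every Gas library, and WT Gas replicate 3 was the highest Gas library. *Tnnc2*, the fast calcium sensor, was at 26200.1, 18858 and 62215 CPM per kb in Gas and at 7089, 12744 and 6355 in Sol, again without overlap. In all, 3 troponin genes were higher and 4 lower in Gas without overlap, as were 14.4% and 15.9% of the genes tested, 30.3% together.

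All 7 troponin genes tested passed in this comparison, with 3 higher and 4 lower in Gas, against 17.0% of the 13749 genes tested (8.25% higher and 8.75% lower; edgeR quasi-likelihood test, Benjamini-Hochberg adjusted p under 0.05). The log2 fold changes of Gas over Sol were -4.26 ± 0.463 (SE) for *Tnni1*, -4.23 ± 0.384 for *Tnnt1* and -3.61 ± 0.603 for *Tnnc1*. They were 2.03 ± 0.452 for *Tnnc2*, 2.03 ± 0.458 for *Tnni2* and 1.52 ± 0.277 for *Tnnt3*. By edgeR's quasi-likelihood test the adjusted p-values of these 6 genes ran from 2.85e-06 for *Tnnt1* to 0.00585 for *Tnni2*. The cardiac gene *Tnnt2* sided with the slow genes, with a log2 fold change of -1.31 ± 0.432 and an adjusted p of 0.0464. That last call was lost without any of the 6 WT libraries, LSD1-mKO Gas replicate 2 or any of the 5 LSD1-mKO Sol libraries, with adjusted p-values up to 0.117, and also without the 3 libraries high in ribosomal protein genes (log2 fold change -1.26, adjusted p = 0.113) and under upper quartile scaling (-1.30, adjusted p = 0.0510). Ribosomal protein level differed between the muscles too (7.76 ± 0.698 log2 CPM in WT Gas, 6.78 ± 0.447 in WT Sol), and with it as a covariate *Tnnc2* and *Tnni2* had log2 fold changes of 0.60 and 0.62 (adjusted p = 0.156 and 0.153), while the slow genes and *Tnnt3* kept their calls.

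In LSD1-mKO mice the muscles differed in the same genes. All 7 genes passed again, with 3 higher and 4 lower, against 24.5% of the 13749 genes tested (11.6% higher and 12.9% lower; edgeR quasi-likelihood test). The libraries of the muscles did not overlap in any of the 7, whereas 9.67% of all genes were higher and 11.2% lower without overlap, 20.9% together. The log2 fold changes of Gas over Sol were -4.02 ± 0.354 for *Tnni1*, -3.57 ± 0.289 for *Tnnt1*, -3.30 ± 0.460 for *Tnnc1* and -1.52 ± 0.322 for *Tnnt2*. They were 1.68 ± 0.351 for *Tnni2*, 1.20 ± 0.213 for *Tnnt3* and 1.08 ± 0.341 for *Tnnc2*. By edgeR's quasi-likelihood test the adjusted p-values ran from 2.92e-07 for *Tnnt1* to 0.0285 for *Tnnc2*. The *Tnnc2* call was the least firm: it was lost without LSD1-mKO Gas replicate 5 (log2 fold change 0.74, adjusted p = 0.0999), without LSD1-mKO Sol replicates 1 or 3 (adjusted p = 0.0559 and 0.0507), with replicate number as a block (0.98, adjusted p = 0.0530 in edgeR) and with ribosomal protein level as a covariate (0.22, adjusted p = 0.417), though not without the 3 libraries high in ribosomal protein genes together (0.75, adjusted p = 0.00485). Library preparation of the muscles and the muscles themselves cannot be told apart, and in whole tissue fewer fibers of a type cannot be told apart from less RNA per fiber.

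**Figure D2:**
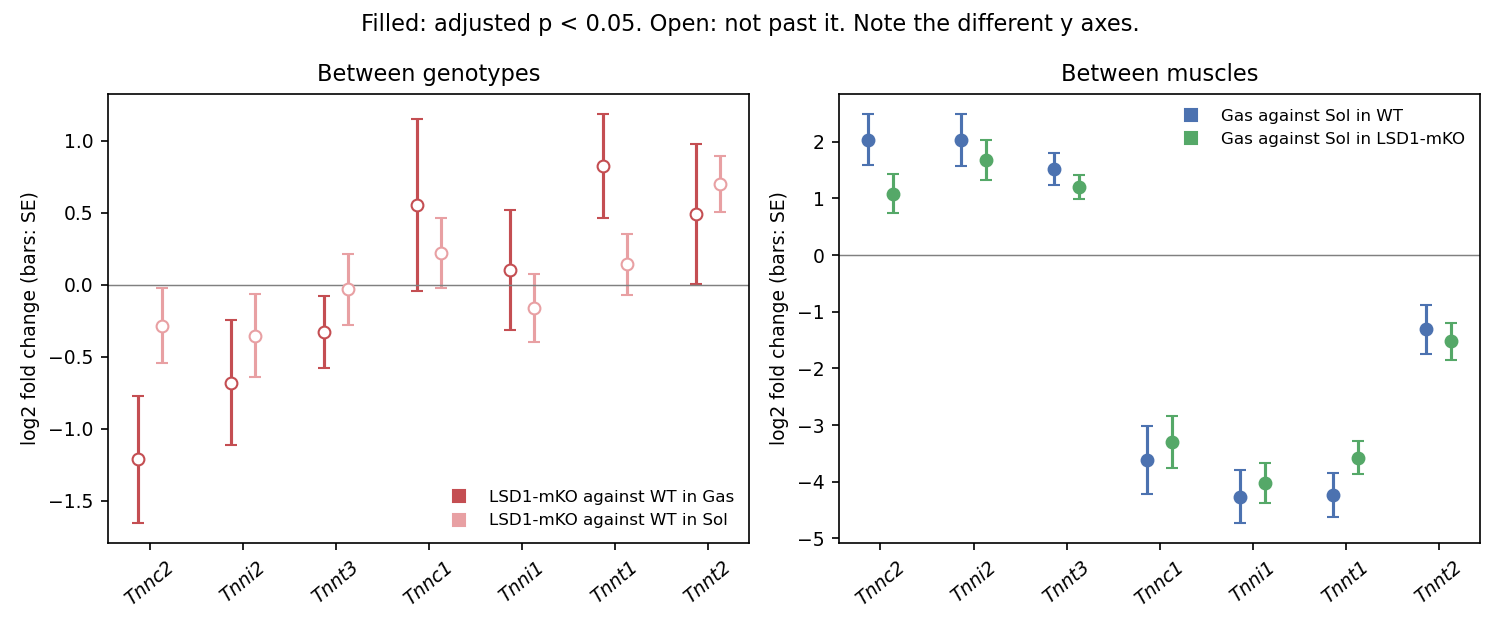
Log2 fold change (points) and SE (bars) of the 7 troponin genes tested, between genotypes within each muscle (left) and between muscles within each genotype (right), on y axes that differ; filled points passed an adjusted p of 0.05 in edgeR's quasi-likelihood test and open points did not. No gene passed between genotypes, from -1.21 for *Tnnc2* to 0.82 for *Tnnt1* in Gas, and all 7 passed between muscles.

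The fast fiber and slow fiber lists, which held no troponin, moved with the troponin genes between the muscles. Of 12 other fast fiber genes, 9 were called higher in WT Gas and *Myh2*, the myosin of the oxidative fast fibers, was called lower (log2 fold change -2.75), with a list median of 2.21 against 0.013 over all genes tested. The largest were *Myh4* (9.27), the calcium buffer *Pvalb* (5.79), the Z-disc actinin *Actn3* (5.25) and the fast myosin-binding protein *Mybpc2* (4.29). All 10 other slow fiber genes were called lower in WT Gas, with a list median of -3.33; they included *Myh7* (-5.45), the slow calcium pump *Atp2a2* (-5.31) and the slow tropomyosin *Tpm3* (-4.36). Of 12 partners of troponin on the thin filament, 3 were called higher (*Actc1*, cardiac actin, 4.34; *Tpm1*, 2.14; *Tmod4*, a pointed-end cap, 0.91) and 2 lower (*Tpm3* and *Lmod2*, a filament nucleator, -2.46); *Tpm1* and *Tpm3* stand on the fast and the slow list as well. In LSD1-mKO the counts were 9 higher and 1 lower of the fast list, 10 lower of the slow list, and 3 higher and 5 lower of the thin filament list.

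The second comparison asked whether loss of LSD1 changed the troponin genes in Gas. No troponin gene was called, as against 0.0307% of the 13040 genes tested (edgeR quasi-likelihood test), and 2 of the 7, *Tnnc2* and *Tnnt1*, had an unadjusted p under 0.05, as 9.06% of all genes did; DESeq2 called none of the 7 either. *Tnnc2* was at 13300.0, 11966, 9163, 13912 and 28559.6 CPM per kb in the LSD1-mKO Gas libraries, against 26200.1, 18858 and 62215 in WT. Only LSD1-mKO Gas replicate 5, which was high in ribosomal protein genes, reached into the WT range. The log2 fold change of *Tnnc2* was -1.21 ± 0.442 (edgeR quasi-likelihood adjusted p = 0.489). *Tnnt1* was at 362, 415, 216, 215 and 310.1 CPM per kb in LSD1-mKO and at 120.4, 111 and 287 in WT, so that only WT Gas replicate 3 reached into the LSD1-mKO range. Its log2 fold change was 0.82 ± 0.363 (edgeR quasi-likelihood adjusted p = 0.549). *Tnnc1* was at 439, 365, 194, 144 and 446 CPM per kb in LSD1-mKO, above the 86.4 and 87.8 of the other WT libraries but below the 479.9 of WT Gas replicate 3.

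The remaining genes differed less in Gas. The log2 fold changes were -0.68 for *Tnni2*, -0.33 for *Tnnt3*, 0.55 for *Tnnc1*, 0.10 for *Tnni1* and 0.49 for *Tnnt2*, and in all 7 genes the groups overlapped, whereas they did not in 7.01% of the genes tested. The fast genes thus had negative and the slow genes positive values, none past the threshold, and with a library left out *Tnni1* turned negative (-0.19 without WT Gas replicate 1, -0.16 without WT Gas replicate 2, -0.074 without LSD1-mKO Gas replicate 5) and *Tnni2* came to as little as -0.017. Without the 3 libraries high in ribosomal protein genes the values were -0.88 for *Tnnc2*, -0.36 for *Tnni2*, -0.33 for *Tnnt3*, 1.73 for *Tnnc1*, 0.79 for *Tnni1*, 1.40 for *Tnnt1* and 0.77 for *Tnnt2*, still with no call. *Tnnt2* was set apart by LSD1-mKO Gas replicate 1, at 8.57 CPM per kb against 1.96 to 3.28 in the other LSD1-mKO and 2.14 to 3.54 in the WT Gas libraries.

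The fast-to-slow ratio within a library cancels the depth and scaling of that library, and it gave the clearest separation of the genotypes in Gas. The *Tnnc2* to *Tnnc1* ratio, between genes of nearly equal exon length (700 and 721 bp), was 303, 215 and 129.6 in WT Gas and 30.3, 32.8, 47.3, 96.6 and 64.1 in LSD1-mKO Gas. Every LSD1-mKO library lay below every WT library. The log2 ratio was lower by 2.05 ± 0.472 (difference ± SE), a 4.13-fold lower ratio (exact permutation test, two-sided, n = 3 and 5, p = 0.0357, which is the smallest this design allows; Benjamini-Hochberg adjusted over 8 tests, 0.0571). Slow troponin C made up 0.519% ± 0.224 of both troponin C mRNAs in WT Gas (SD, n = 3) and 2.16% ± 0.922 in LSD1-mKO Gas (n = 5).

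The other subunits showed the same order. The *Tnnt3* to *Tnnt1* ratio, again between genes of like length (1120 and 1059 bp), was 239, 203 and 116 in WT Gas and 59.8, 46.8, 88.0, 96.2 and 99.98 in LSD1-mKO Gas, a 2.37-fold lower ratio. The *Tnni2* to *Tnni1* ratio was 452, 360.3 and 327 in WT Gas and 173, 164, 230.0, 187 and 266 in LSD1-mKO Gas, a 1.88-fold lower ratio. The ratio of the summed fast to the summed slow genes was 301, 238 and 160.5 in WT and 57.8, 53.2, 89.2, 113 and 107 in LSD1-mKO Gas, a 2.81-fold lower ratio. In all 4 ratios the 5 LSD1-mKO libraries lay below the 3 WT libraries, each with the smallest p the exact permutation test allows (0.0357, adjusted 0.0571), so none passed the threshold after adjustment. The adjustment took in the Sol ratios as well, so the adjusted values in Gas depended on them. The summed ratio is built from the same genes as the others and is not a separate result. The other 3 come from the same libraries, and genes of a set were correlated in Gas (r = 0.774 to 0.951). Their separations were therefore not independent of one another. How often ratios of other gene pairs separate the genotypes in this way was not examined. Leaving out the libraries high in ribosomal protein genes gave log2 differences of -2.47, -1.11, -1.66 and -1.84 for troponin C, I, T and the sum. Each had an adjusted p of 0.213 by the exact permutation test. WT Gas replicate 3 was the lowest WT library in all 4 ratios, and LSD1-mKO Gas replicate 5 the highest of its group for troponin I and T. Wider differences without these libraries followed from their values and are not further evidence.

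**Figure D3:**
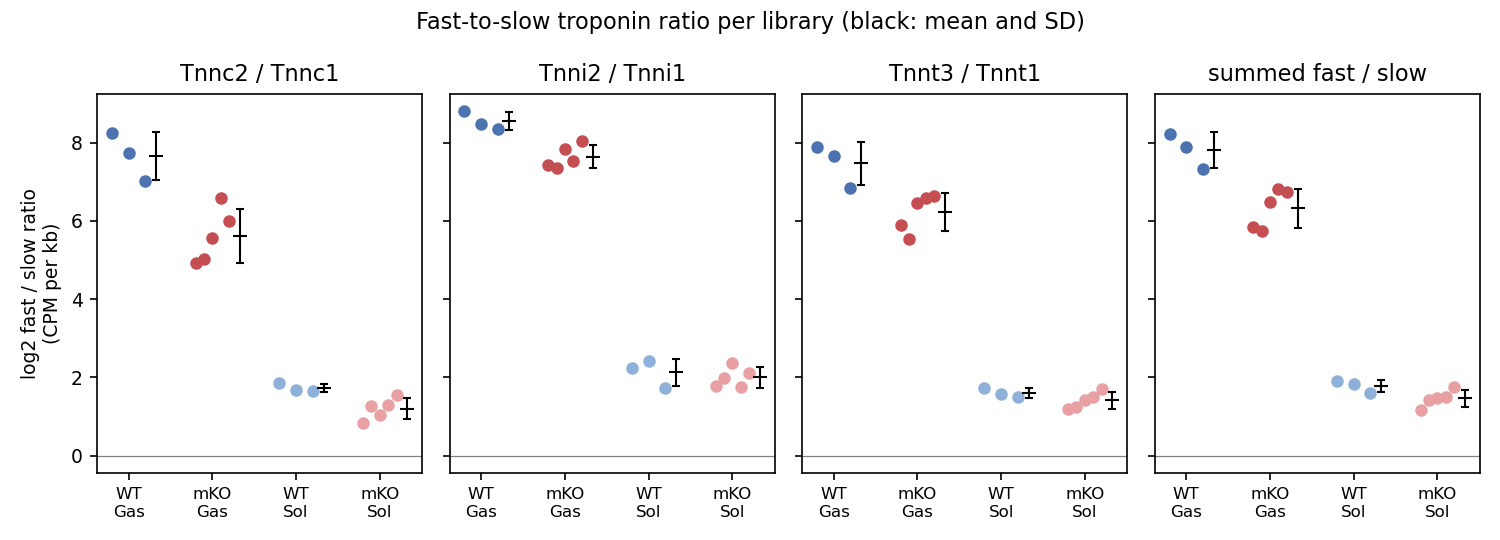
Log2 ratio of fast to slow troponin mRNA (each per kb of exon) in each library, for troponin C, I, T and the summed genes; points are libraries, the black marks are group means with SD, and mKO stands for LSD1-mKO. In Gas every LSD1-mKO library was below every WT library in all 4 panels, and in Sol this held for troponin C alone.

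Within the fast genes, the share of troponin C was also lower in LSD1-mKO Gas. *Tnnc2* stood at 1.21, 1.07 and 1.15 times *Tnni2* (per kb) in WT Gas and at 0.781, 0.800, 0.671, 0.928 and 0.792 times in LSD1-mKO Gas. In Sol the same ratio was 1.13, 1.11 and 1.26 in WT and 1.37, 1.29, 1.11, 1.12 and 1.19 in LSD1-mKO, so the genotypes separated in Gas and overlapped in Sol. Relative to *Tnnt3*, *Tnnc2* was at 0.911, 0.841 and 1.87 in WT Gas and at 0.614, 0.616, 0.483, 0.672 and 0.921 in LSD1-mKO Gas, with both highest values in the libraries high in ribosomal protein genes. Troponin C genes together made up 36.0% ± 5.05 of all troponin mRNA per kb in WT Gas (SD, n = 3) and 26.5% ± 2.94 in LSD1-mKO Gas (n = 5), against 33.4% in both genotypes in Sol. These ratios between subunits were chosen after their values were seen and were not tested.

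**Figure D4:**
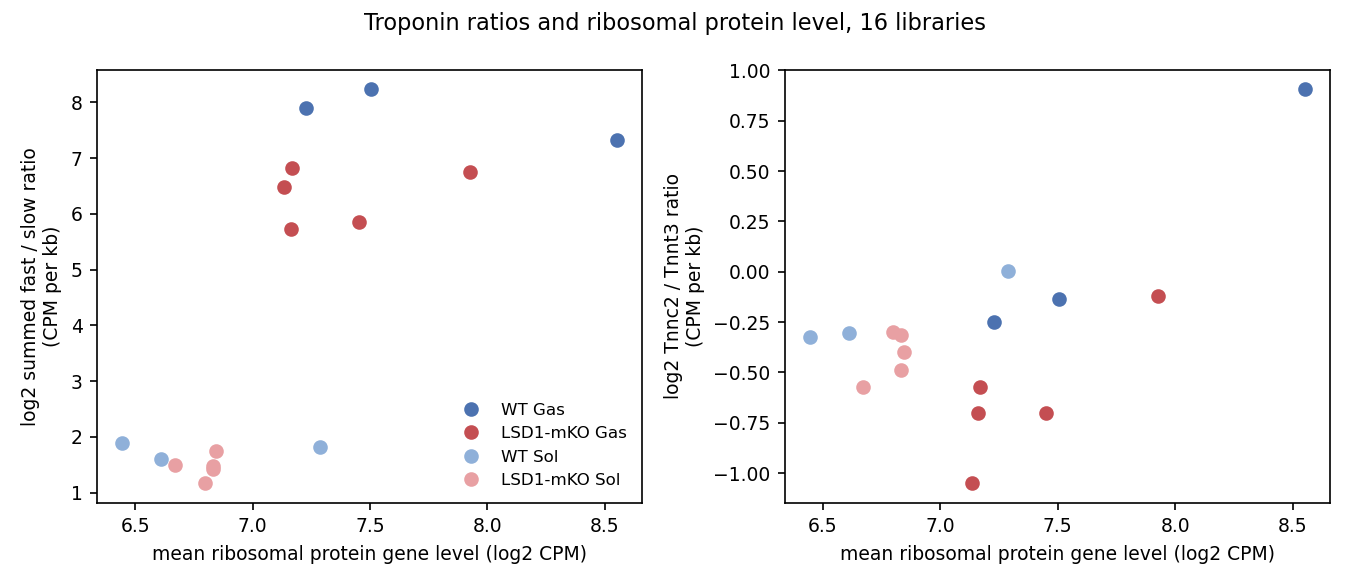
Mean level of ribosomal protein genes (log2 CPM, x axis) against the log2 summed fast-to-slow ratio (left) and the log2 *Tnnc2* to *Tnnt3* ratio (right) in the 16 libraries, colored by group. The library farthest right, WT Gas replicate 3 at 8.55, had the highest *Tnnc2* to *Tnnt3* ratio (1.87) and the lowest summed fast-to-slow ratio of its group (160.5).

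In Sol, loss of LSD1 left the fast and slow genes without a call and *Tnnt2* closest to one. No troponin gene was called, as against 0.967% of the 13342 genes tested (edgeR quasi-likelihood test); 1 of the 7, *Tnnt2*, had an unadjusted p under 0.05, as 15.5% of all genes did, and DESeq2 called 1. *Tnnt2*, the cardiac and embryonic tropomyosin anchor, was at 12.4, 8.70, 12.4, 10.004 and 12.2 CPM per kb in LSD1-mKO Sol and at 5.84, 8.71 and 5.85 in WT Sol. The lowest LSD1-mKO value fell just under the highest WT value, that of WT Sol replicate 2, and the other libraries separated. The log2 fold change was 0.70 ± 0.197 (edgeR quasi-likelihood adjusted p = 0.121); the adjusted p was 0.0267 by DESeq2 and 0.0497 by edgeR with ribosomal protein level as a covariate. Without WT Sol replicate 2, which was high in ribosomal protein genes, the log2 fold change was 0.93 (edgeR quasi-likelihood adjusted p = 0.0821). As a share of all troponin T mRNA per kb, *Tnnt2* was at 0.0505% to 0.0550% in WT Sol and at 0.0638% to 0.122% in LSD1-mKO Sol, ranges that did not overlap, a share chosen after its values were seen and not tested. The reads were few, at 123 to 439 a library in Sol.

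The other log2 fold changes in Sol were small, at 0.22 for *Tnnc1*, 0.14 for *Tnnt1*, -0.16 for *Tnni1*, -0.28 for *Tnnc2*, -0.35 for *Tnni2* and -0.03 for *Tnnt3*. All 7 genes overlapped between the genotypes, and 11.1% of the genes tested did not. *Tnnc1* was at 3199, 3211, 3189.8, 3043 and 3033 CPM per kb in LSD1-mKO Sol, a narrow range that lay above the 1973 and 2008 and below the 3994 of the WT libraries, the last being the library high in ribosomal protein genes. Without that library *Tnnc2*, *Tnni1*, *Tnni2* and *Tnnt3* turned positive (0.11, 0.084, 0.093 and 0.21), and *Tnnc1* and *Tnnt1* were at 0.65 and 0.41, with no call. The direction of *Tnnc2*, *Tnni1* and *Tnni2* thus rested on it, whereas *Tnnt3* also turned positive without LSD1-mKO Sol replicate 1 (0.089).

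Of the ratios in Sol, troponin C separated the genotypes. *Tnnc2* to *Tnnc1* was 3.59, 3.19 and 3.16 in WT Sol and 1.78, 2.41, 2.05, 2.43 and 2.95 in LSD1-mKO Sol, a 1.44-fold lower ratio (log2 difference -0.53 ± 0.136; exact permutation test, two-sided, p = 0.0357, adjusted 0.0571). The *Tnnt3* to *Tnnt1* ratio was 3.04 ± 0.248 in WT and 2.68 ± 0.394 in LSD1-mKO (exact permutation p = 0.179, adjusted 0.204), and the *Tnni2* to *Tnni1* ratio was 4.44 ± 1.03 and 4.05 ± 0.757 (exact permutation p = 0.571, adjusted 0.571). The summed ratio was 3.44 ± 0.343 in WT and 2.77 ± 0.402 in LSD1-mKO Sol (exact permutation p = 0.0714, adjusted 0.0952). Troponin I and T overlapped between the genotypes in Sol, where troponin C did not. Without WT Sol replicate 2 the log2 differences were -0.56, 0.018, -0.21 and -0.29 for troponin C, I, T and the sum.

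A direct test asked if the genotype difference was unequal in Gas and Sol. No gene of the 13749 tested passed the interaction by edgeR's quasi-likelihood test (671 had an unadjusted p under 0.05, 4.88%, and DESeq2 called 21), and the troponin genes had adjusted p-values of 0.987, none with an unadjusted p under 0.05 and none called by DESeq2, which gave no p for *Tnnc1*. The log2 ratio differences in Gas exceeded those in Sol by -1.52 for troponin C, -0.78 for troponin I, -1.05 for troponin T and -1.18 for the sum. By a permutation test over the 3136 arrangements of genotype within muscle these had p = 0.110, 0.0772, 0.0957 and 0.0874, all 0.110 after adjustment. Those arrangements assume no genotype difference in either muscle. A difference shared by the muscles widens them, so the test cannot decide whether the differences were equal. A larger genotype difference in Gas than in Sol was neither established nor excluded for any ratio.

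Between the muscles the ratios differed by more than between the genotypes. In WT the fast-to-slow ratio was 61.5-fold higher in Gas than in Sol for troponin C, 86.3-fold for troponin I and 58.6-fold for troponin T, with an exact permutation p of 0.1, the smallest that 3 against 3 libraries allow. In LSD1-mKO it was 21.5-fold, 50.2-fold and 28.2-fold higher (exact permutation test, two-sided, n = 5 and 5, p = 0.00794, adjusted 0.0159). With LSD1-mKO libraries paired by number, the differences had the same sign in all 5 pairs, the most that 5 pairs can show, and an adjusted p of 0.125 by an exact sign-flip permutation test. The libraries of the muscles did not overlap in any ratio, so every pairing gives this sign and the result says nothing about the pairing.

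Among genes outside the troponins, no member of the fast or slow fiber lists was called in Gas between the genotypes. The 10 slow fiber genes all had a positive log2 fold change (median 0.44, against 0.010 over all genes tested), and 8 of the 12 fast fiber genes had a negative one (median -0.57). Their summed levels did not overlap: the fast list ran from 157067 to 187925 CPM in WT Gas and from 118127 to 151682 CPM in LSD1-mKO Gas, and the slow list from 3742 to 4642 CPM in WT Gas and from 5199.5 to 7349 CPM in LSD1-mKO Gas. These sums were looked at after the troponin ratios and were not tested. In Sol, 3 genes of the contractile lists were called higher by edgeR's quasi-likelihood test, namely *Mybpc2* (1.74, adjusted p = 0.0373), *Casq2*, the slow and cardiac calcium store protein (1.10, adjusted p = 0.0155) and *Tmod1*, a thin filament cap (1.07, adjusted p = 0.0155). The 6 tested members of the cardiac and developmental list all had positive values in Sol (median 0.93, none called), as *Tnnt2* did, and in Gas 3 of 6 were positive (median -0.15).

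Marker lists of other states and cells were examined beside these results, and no member of them was called between the genotypes. The summed level of 7 genes of denervated and regenerating fibers ran from 102 to 150.2 CPM in WT Gas and from 149 to 453 CPM in LSD1-mKO Gas, and from 101 to 114 against 133 to 299 CPM in Sol. Fibroblast genes ran from 1406 to 1963 CPM in WT Gas and from 872 to 1110.2 CPM in LSD1-mKO Gas, and overlapped in Sol. Adipocyte, Schwann cell, smooth muscle, endothelial and satellite cell lists overlapped between the genotypes in Gas, and of the 10 blood cell genes the 5 hemoglobin genes were at 0 in every library. The blood cell list still summed to 12.7 to 144 CPM, so the values of 0 do not show that blood RNA was absent. The part of any of these in the troponin ratios was not tested.

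The genes whose levels followed the troponins most closely differed between the sets. Likeness was measured as the correlation of log2 CPM over the 16 libraries after removing the mean of each muscle, a description over libraries that share the depth and the ribosomal protein differences given above. The mean of the slow genes was followed most closely by *Myl3* (r = 0.935), the slow ventricular myosin light chain, then *Psme1* (0.914), *Hmgb3* (0.905), *Tpm3* (0.902) and *Gstp2* (0.892), so that 2 of the 5 were slow contractile genes. The mean of the fast genes was followed by *Lamtor4* (0.978), *Macrod2* (0.978), *1500011K16Rik* (0.973), *Zswim7* (0.972) and *Romo1* (0.971), none of them contractile. Exon lengths were 877 bp for *Lamtor4*, 4817 for *Macrod2*, 732 for *Zswim7* and 747 for *Romo1*, and 937 for *Myl3*, 1112 for *Psme1*, 1753 for *Hmgb3*, 3323 for *Tpm3* and 797 for *Gstp2*, against a median of 3213 bp over 12243 genes, so that most followers of both sets lay below the median (none was read for *1500011K16Rik*). Among themselves the fast genes had correlations of 0.936 to 0.951 in Gas and 0.884 to 0.972 in Sol, and the slow genes 0.774 to 0.927 in Gas and 0.343 to 0.870 in Sol (n = 8 libraries each), the loosest pair being *Tnnc1* and *Tnni1* in Sol.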

How the data were processed

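RNA-seq libraries of Gas and Sol from dexamethasone-treated WT and LSD1-mKO mice were analysed (75-base single-end reads). According to the deposited file headers and the study's methods, the authors aligned reads to mm10 with STAR (version not given in the sources used here) and made raw read counts per gene with featureCounts 1.5.2 on UCSC exons; the command set no strand option, so sense and antisense reads were not separated. Deposited tables of the authors' own fold changes and p-values were not used. The members and gene lists were chosen with earlier results of these data known.

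Genes were filtered with filterByExpr (minimum count 10) and tested with edgeR 4.0.16 (TMM scaling, quasi-likelihood F-test, Benjamini-Hochberg adjustment over all genes, threshold 0.05), within a muscle for genotype and over all 16 libraries for muscle and interaction. CPM came from a common TMM scaling of the 16 libraries. Exon lengths came from GENCODE M21 transcripts matched to RefSeq. Log2 ratios of CPM per kb were compared by two-sided exact permutation tests (SciPy 1.17.1), adjusted over 8 tests for genotype, 8 for muscle and 4 for their interaction. The interaction test permuted genotype within each muscle, so its null was no genotype difference in either muscle. Genes named were the 8 troponins, *Kdm1a*, up to 4 called members of a list per comparison (those with the largest change), the 5 genes most like each set, and *Myh2* and *Tmod4*, named after their values were seen. For Sol the study counts the sequenced groups as mice, fewer of them LSD1-mKO than the 5 libraries here. The labels tie no library to a mouse, so p-values measure the spread between these samples, part of which may be technical. Replicates of a group differed by more than sampling noise (chi-square per degree of freedom at least 17.8).

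Replicate numbers were checked by the correlation of same-numbered libraries' deviations from their group means. LSD1-mKO libraries of Gas and Sol had 0.21 to 0.36 in the 5 pairs. WT Gas and Sol had -0.52 to 0.12, and the genotypes had -0.16 to 0.31 within Gas and -0.01 to 0.13 within Sol. Differently numbered libraries were not correlated, and the 0.31 between the genotypes in Gas lies within the LSD1-mKO range. Pairing by number was therefore an assumption, given neither by the labels nor by these correlations. The edgeR tests were checked on simulated counts with a common dispersion (spread beyond sampling noise) of 0.1. Of 200 genes changed by a log2 of 2, they recovered 200 in Gas, 200 in Sol, 195 between muscles in WT and 154 in the interaction. False calls numbered 4 to 10. No simulated library stood apart as the 3 high in ribosomal protein genes did, so these counts do not give the power in the real data. The ratio tests were checked on a constructed case alone. Alternatives were other scalings, no filter, DESeq2 1.42.0, a ribosomal protein covariate, a replicate block, each library left out, and, added after seeing the data, the newer quasi-likelihood form, exon lengths of the basic annotation and leaving out the 3 libraries high in ribosomal protein genes.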

Additional observations from a re-analysis of the deposited data

Results flagged for a closer look

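Of 24 groups of 5 libraries examined, 4 held a library whose gap to the nearest other exceeded the 95% critical value of Dixon's test (0.71 of the range); chance gives about 1.2 in 24. LSD1-mKO Gas replicate 5, the library of its group highest in ribosomal protein genes (7.93 log2 CPM), exceeded it for the 3 fast genes. It had 28559.6 CPM per kb of *Tnnc2* against 9163 to 13912 in the others of its group, 36043 of *Tnni2* against 13664 to 17038, and 30998 of *Tnnt3* against 18975 to 21649. LSD1-mKO Gas replicate 1 had 8.57 CPM per kb of *Tnnt2* (223 reads) against 1.96 to 3.28 in the others. No fast-to-slow ratio exceeded it in either LSD1-mKO group, and groups of 3 were not examined. Genes were examined as CPM per kb and ratios as log2 values. The 2 kinds were therefore not judged on the same scale, and a flag on a gene depends on the scale chosen.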

How the results depend on the processing

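The number of genes called between genotypes depended on the method, while troponin calls seldom did. In Gas, 4 genes were called, against 10 with no filter, 132 by DESeq2, 62 with all 16 libraries in a common fit, 8 with the newer quasi-likelihood form, and 1 to 7 with a library left out (1 without WT replicates 1 or 2, 7 without WT replicate 3, 2 without LSD1-mKO replicates 2 or 5). In Sol, 129 were called, against 336 with no filter, 605 by DESeq2, 285 with the ribosomal protein covariate, 23 without the libraries high in ribosomal protein genes, and 11 to 228 with a library left out (13, 23 and 11 without WT replicates 1, 2 and 3, and 35, 67 and 228 without LSD1-mKO replicates 2, 3 and 5). The interaction called 21 by DESeq2 and 0 to 1 with a library left out. Gas against Sol in WT called 2337, and 1132 to 2839 with a library left out (1132 and 1199 without WT Sol replicates 1 and 3). Without WT Gas replicate 3 the WT differences of *Tnnc1*, *Tnni1*, *Tnnt1*, *Tnnc2* and *Tnni2* between muscles were -4.91, -5.09, -4.79, 1.39 and 1.39.

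Troponin genes called in Sol numbered 1, *Tnnt2*, by DESeq2 and with the ribosomal protein covariate, and 0 otherwise. Between muscles DESeq2 called the other 6 genes tested in both genotypes and gave no p for *Tnnc1*. Directions of uncalled genes turned. Without the libraries high in ribosomal protein genes, *Tnnc2*, *Tnni1*, *Tnni2* and *Tnnt3* in Sol had 0.11, 0.084, 0.093 and 0.21, and the troponin I ratio in Sol 0.018. With the covariate, the interaction had 0.20 for *Tnni2* and 0.020 for *Tnnt2*. With a library left out, ranges crossed 0 for *Tnni1* (-0.19 to 0.95) and *Tnnt2* (-0.082 to 0.69) in Gas, for *Tnnc2* (-0.45 to 0.11), *Tnni1* (-0.29 to 0.084), *Tnni2* (-0.56 to 0.093), *Tnnt3* (-0.15 to 0.21) and the troponin I ratio (-0.33 to 0.018) in Sol, and for *Tnnc1* (-0.080 to 1.63), *Tnni1* (-0.053 to 1.09) and *Tnni2* (-0.77 to 0.31) in the interaction. The cause was not tested.

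The replicate block gave 412 genes in Sol, 3 in Gas and 1 in the interaction, and 1959 and 3063 between muscles in WT and LSD1-mKO; beyond *Tnnc2* it changed no troponin call. Ratios between muscles in LSD1-mKO kept their sign under the block (log2 differences 4.43, 5.65, 4.82 and 4.87 for troponin C, I, T and the sum, adjusted p = 0.125 by an exact sign-flip permutation test) and as medians (4.30, 5.55, 5.05 and 5.002, adjusted p = 0.0952, exact permutation test). These adjusted values are the smallest that either test allows with so few libraries, so neither could pass the threshold. The libraries of the muscles did not overlap in any of these ratios, so the sign had to stay the same under any pairing. Few WT libraries limit the precision: no exact test of a Gas ratio could fall below the p reported, and *Tnni3* was too low for a comparison.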
